A study of Mus musculus with 12 samples.

Results

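Interleukins are secreted proteins through which leukocytes and tissue cells signal to each other, and each acts through receptor chains on the responding cell. Families share chains: the IL-1 receptor accessory protein (Il1rap) serves several receptors of the IL-1 family, gp130 (Il6st) the IL-6 family, and Il10rb the IL-10 family, while decoy receptors, antagonists and binding proteins hold the ligands back. In liver, Kupffer cells and infiltrating leukocytes are the main makers of many interleukins, and hepatocytes answer IL-6 and IL-1 with acute phase proteins. The genes described here are the 76 of 19938 tested genes whose symbol is Il followed by a number, each read from 1 probe set (a group of array probes for a transcript), the brightest over all arrays. Of these, 37 encode ligands, 35 receptor chains and 3 antagonists or binding proteins (Il1rn, Il18bp and Il22ra2), and 1, Il1bos, is a non-coding transcript opposite Il1b. Outside these antagonists, binding proteins and Il1bos, roles follow the symbols. Il1f5, which encodes the IL-36 receptor antagonist, is therefore counted with the ligands, and the decoy receptors Il1r2 and Il13ra2 with the receptor chains. Il1r1, Il1rl1 and Il2rg are not analysed here.

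The livers came from 12 fed C57Bl/6J mice, each profiled on its own array and numbered 1 to 6 within its group as a name only. All mice were injected by vein at 10 weeks of age with an adenovirus and studied after 7 days. In 6 of them, sh scramble, it carried a scrambled hairpin RNA, and in the other 6, sh Grb14, a hairpin RNA against Grb14, an adapter protein that inhibits the insulin receptor. Every animal therefore carried virus, and the labels name a single hairpin against Grb14. The comparison asks what differs between livers given either hairpin. Effects of less Grb14 cannot be told apart from other effects of that hairpin or its virus. On the log2 scale Grb14 was 10.08, 10.14 and 10.25 (lowest, median and highest) with the scrambled hairpin and 8.02, 8.23 and 8.44 with the hairpin against it, so that 26.7% of the control level was left. Array lower quartiles lay between 5.69 and 5.83 and array medians between 7.06 and 7.17. No detection call was made, so levels near or under the lower quartiles may be background. Hepatocyte markers were abundant in every liver (list mean 13.22 to 13.32 in sh scramble and 12.60 to 12.85 in sh Grb14 livers).

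Genes differed between the groups very widely in these livers, so counts of members and lists are to be read against the shares of all genes given here. A gene passed when its limma p, Benjamini-Hochberg adjusted over all genes, was under 0.05, and a change is the sh Grb14 minus the sh scramble mean on the log2 scale. By this rule 65.3% of all genes differed, 25.8% with a rise and 39.5% with a fall in the sh Grb14 group.

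The start regions of 4 IL-1 family genes are shown because the account of IL-1 turns on them: the ligand genes Il1a and Il1b and the antagonist gene Il1rn rose, and the shared receptor chain gene Il1rap fell. The sequences are RefSeq's (GRCm38.p6), read 5′ to 3′ on the gene's strand, from 250 bases before to 50 after the annotated start. Capitals mark letters that match, on either strand, TGANTCA (the site of AP-1), TTCNNNGAA (STAT proteins), the NF-kB motif, GAGGAA (PU.1, a regulator of myeloid cells) or TATAAA (the TATA box), and overlapping matches run together.
Il1a, chr2:129309923-129310222, minus strand: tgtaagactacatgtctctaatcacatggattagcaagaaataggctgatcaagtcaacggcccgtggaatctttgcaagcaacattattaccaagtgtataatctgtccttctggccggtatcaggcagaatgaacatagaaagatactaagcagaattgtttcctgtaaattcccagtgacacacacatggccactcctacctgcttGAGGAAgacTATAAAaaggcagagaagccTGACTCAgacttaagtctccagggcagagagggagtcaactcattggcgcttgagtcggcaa
Il1b, chr2:129371090-129371389, minus strand: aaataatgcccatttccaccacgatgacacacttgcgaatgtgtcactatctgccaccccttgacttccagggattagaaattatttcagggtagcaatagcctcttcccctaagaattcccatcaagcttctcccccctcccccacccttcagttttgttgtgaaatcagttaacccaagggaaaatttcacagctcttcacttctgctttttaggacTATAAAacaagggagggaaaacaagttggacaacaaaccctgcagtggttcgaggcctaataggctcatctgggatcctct
Il1rn, chr2:24336610-24336909, plus strand, 1 of 3 listed starts: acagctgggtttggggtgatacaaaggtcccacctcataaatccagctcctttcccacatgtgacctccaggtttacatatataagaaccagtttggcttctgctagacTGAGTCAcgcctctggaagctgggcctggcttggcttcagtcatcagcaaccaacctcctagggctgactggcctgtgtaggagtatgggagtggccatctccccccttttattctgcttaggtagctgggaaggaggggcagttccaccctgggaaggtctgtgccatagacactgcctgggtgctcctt
Il1rap, chr16:26581455-26581754, plus strand: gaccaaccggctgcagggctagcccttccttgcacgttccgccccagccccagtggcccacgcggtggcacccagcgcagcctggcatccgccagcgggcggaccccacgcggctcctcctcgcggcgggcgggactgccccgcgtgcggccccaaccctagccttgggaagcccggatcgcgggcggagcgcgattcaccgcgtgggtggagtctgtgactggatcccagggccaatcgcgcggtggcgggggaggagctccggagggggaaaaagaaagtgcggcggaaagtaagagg

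The windows differ in base composition. The Il1rap window held 33 CG dinucleotides, against 5, 3 and 1 in the Il1a, Il1b and Il1rn windows shown and a median of 7 over all 32851 promoter windows of that length. A match to TATAAA stood in the Il1a and Il1b windows and in 13.6% of all windows, and a match to TGANTCA in the Il1a and Il1rn windows shown and in 7.81% of all. The other listed Il1rn starts held 5 and 4 CG dinucleotides and no match to TGANTCA, and the one with 4 matched TATAAA. The Il1rap window held no match to any of the motifs. RefSeq's table held 71 windows of 59 members. Of these, 19.7% matched TGANTCA, 15.5% TTCNNNGAA (8.30% of all windows), 9.86% the NF-kB motif (8.46%), 32.4% GAGGAA (28.3%) and 18.3% TATAAA. Of the 21 members that rose at least 1.5-fold, 15 had a window, some with several listed starts. In their 20 windows TGANTCA matched in 3, TTCNNNGAA in 4, the NF-kB motif in 3, GAGGAA in 6 and TATAAA in 6. In the 51 windows of the other members the same motifs matched in 11 (21.6%), 7 (13.7%), 4 (7.84%), 17 (33.3%) and 7 (13.7%). These matches are descriptions of letters and not sites of binding.

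Members that fell did so by less than 1.5-fold, except Il1rap and Il6ra, while 21 of the 26 that rose passed that size. Of the 76 members, 26 (34.2%) rose, 24 (31.6%) fell and 26 did not pass, shares not far from the 25.8% and 39.5% of all genes. Rises of at least 1.5-fold were 21 of 76 members (27.6%, against 11.5% of all genes), and falls of that size were 2 of 76 (2.63%, against 7.26%). Among the 35 receptor genes, 18 rose (51.4%) and 9 fell (25.7%), with a median change of 0.16. Among the 37 ligand genes, 6 rose (16.2%) and 15 fell (40.5%), with a median change of −0.11, and the median change of all genes was −0.10. The groups did not overlap for 31 members (40.8%), against 41.2% of all genes. Centring each array on the median of the genes tested left 25 members higher and raised the lower ones to 47, as it moved the higher share among all genes past the test from 39.5% to 23.0%.

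**Figure D1:**
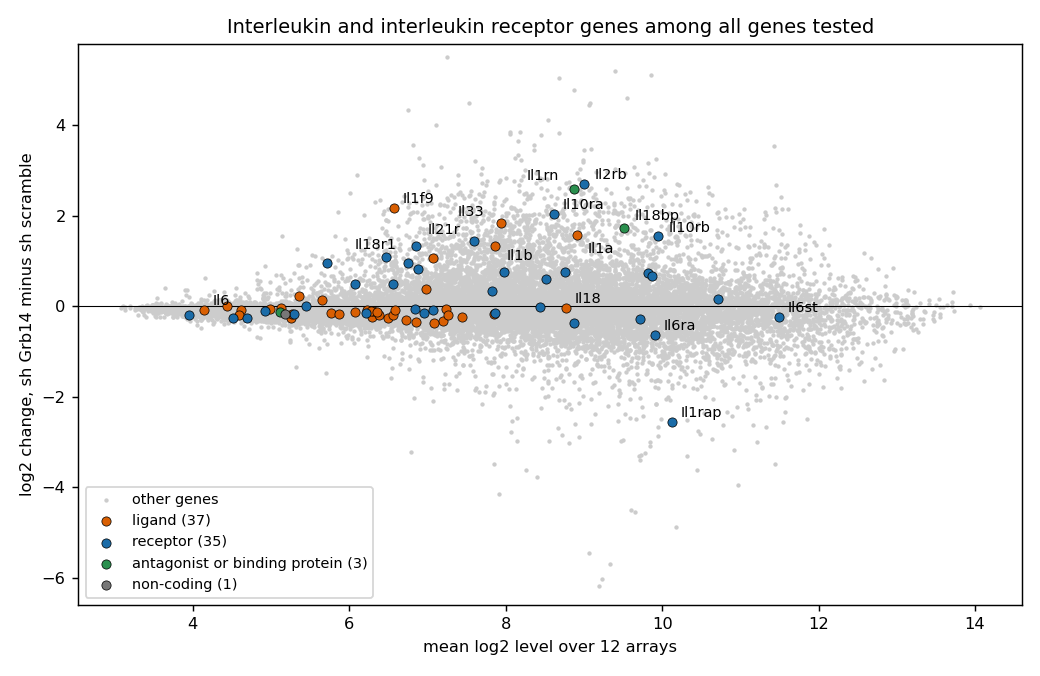
Mean log2 level over 12 arrays (x axis) against the log2 change, sh Grb14 minus sh scramble (y axis), with other tested genes in grey and the members coloured by role. Il2rb and Il1rn lie highest among the members, Il1rap lies lowest at −2.56, and most ligand genes lie at the dim end near no change.

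**Figure D2:**
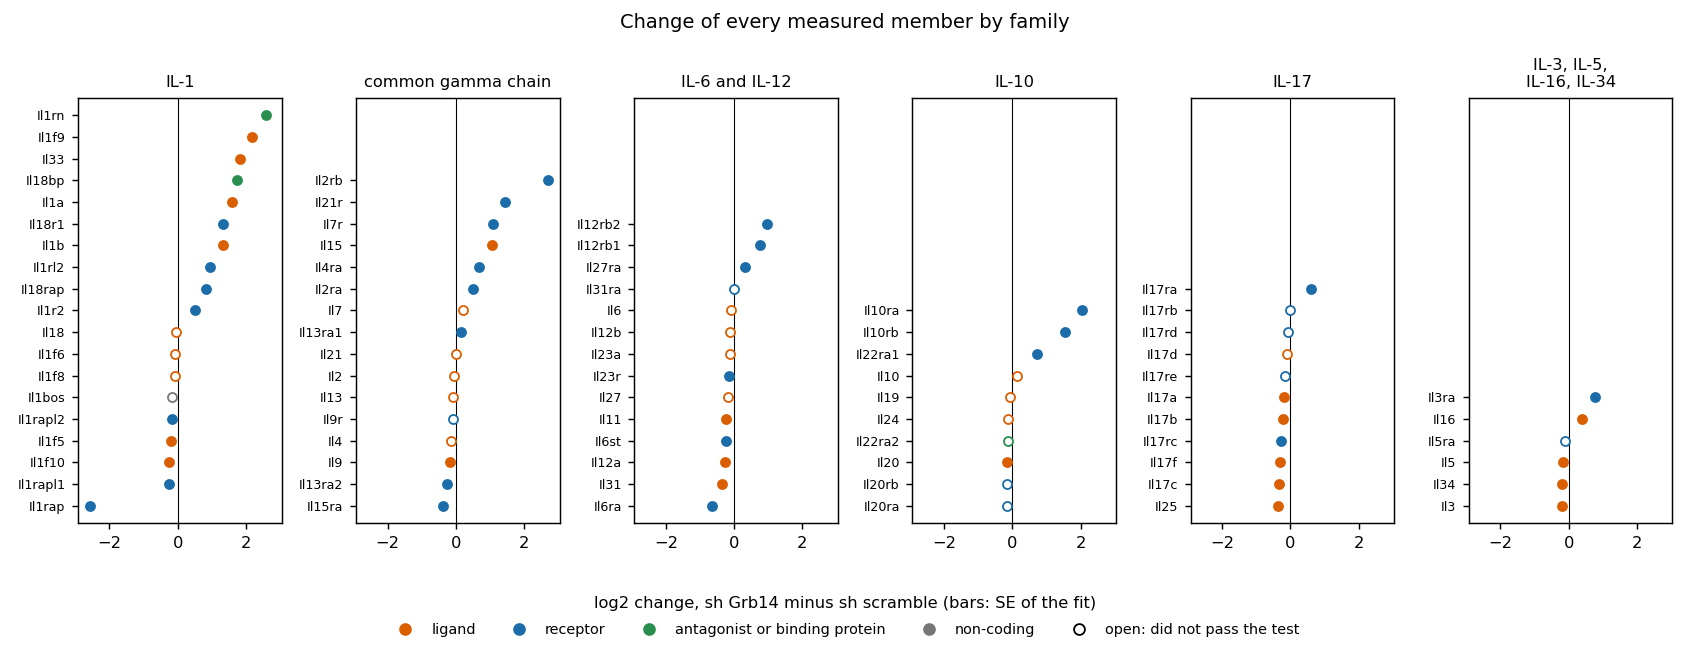
Log2 change of each measured member, sh Grb14 minus sh scramble, by family, with the SE of the fit as bars, filled points for genes that passed limma's test and open points for those that did not. In each family the upper end holds receptor, antagonist or ligand genes with rises, and the falls past −0.5 are those of Il1rap and Il6ra.

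The IL-1 ligand genes rose together with the gene of their antagonist. Il1a, an alarm cytokine kept inside cells until damage, had a log2 level of 7.93, 8.14 and 8.36 (lowest, median and highest of 6 mice) in sh scramble livers and 9.48, 9.72 and 9.95 in sh Grb14 livers. It rose 3.0-fold (log2 1.58, SE 0.086; limma adjusted p = 6.47e-11), with every sh Grb14 liver above every sh scramble liver. Il1b, the form that macrophages secrete after cleavage by caspase 1, lay at 6.95, 7.14 and 7.54 in sh scramble and 8.23, 8.44 and 8.91 in sh Grb14 livers. Its rise was 2.53-fold (log2 1.34, SE 0.12; limma adjusted p = 6.26e-08), again without overlap. Il1bos, the transcript from the opposite strand, changed by −0.17 (SE 0.077) without passing, though it passed at −0.18 with arrays centred on their medians, at −0.31 with arrays centred on the median of the genes tested, and without sh scramble mouse 6 (−0.22) or sh Grb14 mouse 4 (−0.20).

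Il1rn, the secreted antagonist that occupies the IL-1 receptor without signalling, was at 7.34, 7.57 and 7.90 in sh scramble livers and at 10.07, 10.15 and 10.35 in sh Grb14 livers. It rose 6.01-fold (log2 2.59, SE 0.088; limma adjusted p = 2.29e-13). Its 6 sh Grb14 values were tight and lay more than 2 log2 units above the highest sh scramble value. The log2 difference between Il1rn and Il1b was computed in each mouse and compared between the groups by a two-sided exact permutation test, as for 12 pairs in all, which were chosen with the values known. Il1rn rose by 1.25 (SE 0.16) more than Il1b and by 1.0 (SE 0.099) more than Il1a (exact p = 0.00216 each, the smallest that 2 groups of 6 mice allow; 0.00325 adjusted over the 12 pairs). Il1r2, a decoy receptor that binds IL-1 without signalling, rose from 6.20, 6.26 and 6.48 to 6.69, 6.83 and 6.87, a change of 0.50 (SE 0.064).

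Il1rap, the chain that IL-1, IL-33 and IL-36 receptors need in order to signal, had the largest fall among the members. Its level was 11.36, 11.42 and 11.44 in sh scramble livers, with an SD of 0.036, and 8.61, 8.79 and 9.31 in sh Grb14 livers, with an SD of 0.24. The fall of 5.92-fold (log2 −2.56, SE 0.086; limma adjusted p = 2.01e-13) left 16.9% of the sh scramble level. The highest sh Grb14 value, 9.31 in mouse 2, was still more than 2 log2 units under the lowest sh scramble value. In the same livers 8 of 10 hepatocyte marker genes fell and 0 rose, with a median change of −0.26 and a range from −2.04 (Hal, histidine ammonia-lyase) to 0.036 (Alb, albumin). In bulk liver, fewer cells of a type and less RNA per cell cannot be told apart, and the part of hepatocyte content in the fall was not tested.

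Genes of the IL-33, IL-18 and IL-36 branches moved as follows. Il33, a nuclear alarm cytokine of stromal and endothelial cells, lay at 6.89, 7.01 and 7.17 in sh scramble livers and at 8.46, 8.81 and 9.44 in sh Grb14 livers. It rose 3.57-fold (log2 1.84, SE 0.12; limma adjusted p = 8.43e-10), with a wider spread in sh Grb14 livers (SD 0.33) than in sh scramble livers (SD 0.12). In the same livers 7 of 10 stellate cell and fibroblast genes rose and 2 fell (median change 1.05), and 4 of 10 sinusoidal endothelial genes rose while 5 fell. Their part in the Il33 rise was not tested.

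Il18, an inducer of interferon gamma that Kupffer cells make constitutively, was at 8.68, 8.75 and 9.02 in sh scramble and 8.56, 8.78 and 8.90 in sh Grb14 livers, which overlap. Its change of −0.041 (SE 0.072) did not pass (limma adjusted p = 0.623), and with arrays centred on the median of the genes tested it was −0.19 and passed, while without sh scramble mouse 3 it was 0.0045. Il18bp, the soluble protein that neutralises IL-18, rose from 8.50, 8.62 and 8.76 to 10.35, 10.37 and 10.41. This is a 3.34-fold rise (log2 1.74, SE 0.047; limma adjusted p = 2.01e-14), and the 6 sh Grb14 values had an SD of 0.023. The Il18bp change exceeded the Il18 change by 1.78 (SE 0.10; exact permutation p = 0.00216, 0.00325 adjusted over the 12 pairs). The receptor genes Il18r1 and Il18rap, found on cytotoxic and helper T cells and NK cells, rose by 1.34 (SE 0.093) and 0.83 (SE 0.091), each without overlap.

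Il1f9, which encodes IL-36 gamma, an epithelial and myeloid cytokine, rose from 5.17, 5.56 and 5.64 to 7.31, 7.63 and 8.13, a change of 2.17 (SE 0.13; limma adjusted p = 2.14e-10). The sh scramble values lie under the lower quartiles of the arrays, where changes tend to be compressed, and it is not turned into a fold. Il1rl2, the IL-36 receptor chain, had a median of 5.26 in sh scramble livers (5.06 to 5.4) and 6.23 in sh Grb14 livers (5.97 to 6.36), a rise of 0.95 (SE 0.073). The gene of the IL-36 receptor antagonist, Il1f5, did not follow Il1rn: its levels of 6.37 to 6.60 and 6.11 to 6.49 overlapped and its change was −0.19 (SE 0.070). That small fall passed the test, but not when sh scramble 6 or sh Grb14 2, 3 or 6 was left out (changes −0.17 to −0.15). Of the remaining ligand genes Il1f10, which encodes IL-38, fell by 0.25 (SE 0.073), and Il1f6 and Il1f8 did not pass.

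**Figure D3:**
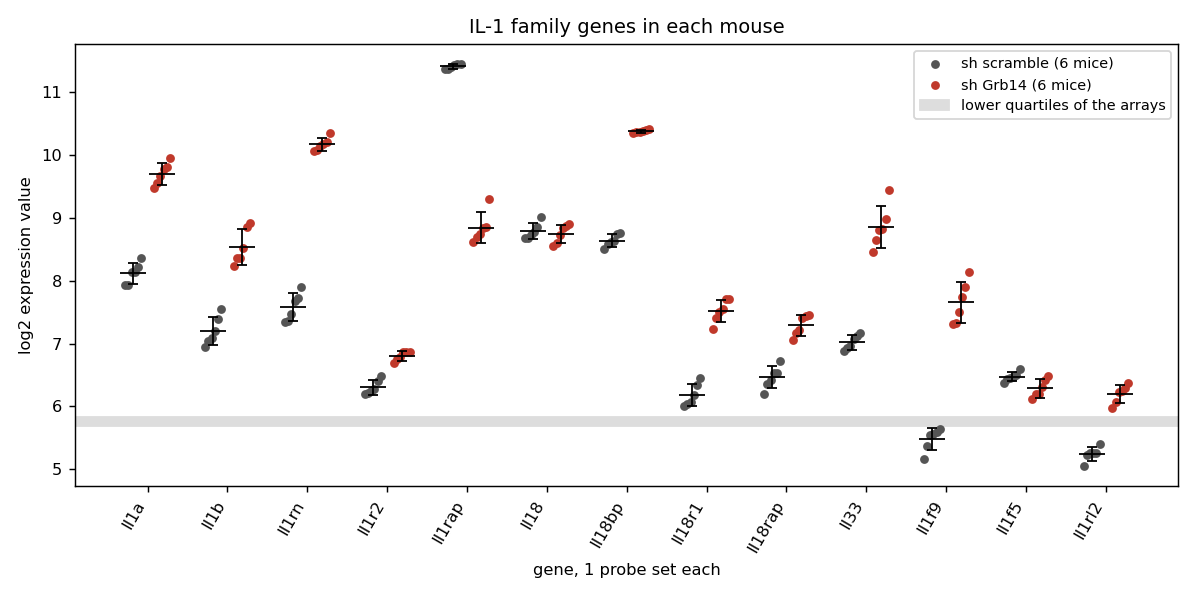
Log2 expression of IL-1 family genes in each of 6 sh scramble (grey) and 6 sh Grb14 (red) livers, with the mean and SD as black marks and the range of the arrays' lower quartiles as a grey band. The red points lie above the grey ones without overlap for Il1a, Il1b, Il1rn, Il1r2, Il18bp, Il18r1, Il18rap, Il33, Il1f9 and Il1rl2, below them for Il1rap, and overlap with them for Il18 and Il1f5.

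In a list of genes that process and relay IL-1 family signals, the largest rises were of sensor and caspase genes, and relay genes changed in both directions. Rises were found for 10 of the 15 genes measured in this list and falls for 4, and the median change was 0.57, against 25.8% of all genes higher and a median of −0.10. Of genes above the median gene level (7.64), where 12 of the 15 lie, 37.9% rose and 40.2% fell. The DNA sensor Aim2 rose by 2.06 (SE 0.080), caspase 1 (Casp1), which cleaves the IL-1b and IL-18 precursors, by 1.96 (SE 0.091), the inflammasome sensor Nlrp3 by 1.64 (SE 0.080) and Casp4 by 1.5 (SE 0.089). The 4 falls were smaller and were those of Irak1 (−0.34), Map3k7 (−0.23), Tollip (−0.22) and Irak2 (−0.16). Traf6 did not pass, and Tab2 rose by 0.090, Myd88 by 0.68 and Irak3 by 0.71. Casp1 averaged 6.24 ± 0.20 (log2, SD, n = 6) under the scrambled hairpin and 8.19 ± 0.14 (SD, n = 6) under the Grb14 hairpin. In the same livers 10 of 10 measured genes of the monocyte and recruited macrophage list rose, with list means of 7.92 to 8.27 in sh scramble and 9.98 to 10.28 in sh Grb14 livers. Among neutrophil genes 8 of 10 rose (list means 6.21 to 6.42 and 7.35 to 7.85). Among Kupffer cell genes 5 of 10 rose, namely Cd5l (1.79), C1qc (1.59), C1qa (1.47), C1qb (1.36) and Folr2 (0.23). The others, Vsig4, Clec4f, Timd4, Marco and Cd163, did not pass. The part of these cells in the changes of the IL-1 family genes was not tested.

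In the family that signals through the common gamma chain or shares receptors with it, 6 of 9 receptor genes rose and 2 fell, while 1 of 7 ligand genes rose and 1 fell, against 25.8% of all genes with a rise and 39.5% with a fall. Il2rb, the chain through which IL-2 and IL-15 signal, had the largest rise of the members. Its level was 7.5, 7.67 and 7.77 in sh scramble livers and 10.13, 10.38 and 10.58 in sh Grb14 livers, a 6.49-fold rise (log2 2.7, SE 0.073; limma adjusted p = 2.01e-14). The lowest sh Grb14 liver was more than 2 log2 units above the highest sh scramble liver. Il2ra, the high affinity chain of activated and regulatory T cells, rose less, from 5.76, 5.81 and 5.92 to 6.18, 6.35 and 6.43 (0.49, SE 0.059). The change of Il2rb exceeded that of Il2ra by 2.20 (SE 0.084; exact permutation p = 0.00216, 0.00325 adjusted over the 12 pairs), though Il2ra lies near the arrays' lower quartiles, where changes can be understated.

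Il21r, the receptor of a helper T cell cytokine, rose 2.71-fold, from 6.71, 6.84 and 7.20 to 8.15, 8.32 and 8.43 (log2 1.44, SE 0.080; limma adjusted p = 9.71e-11). Il7r, which sustains naive and memory T cells, rose from 5.74, 5.93 and 6.05 to 6.59, 7.04 and 7.36, a change of 1.09 (SE 0.11) with a wider spread among the sh Grb14 livers (SD 0.28 against 0.12). Il4ra, the IL-4 and IL-13 receptor chain found on hepatocytes and macrophages as well as lymphocytes, rose 1.60-fold, from 9.45, 9.54 and 9.62 to 10.09, 10.20 and 10.33 (log2 0.68, SE 0.047). Its partner gene Il13ra1 lay at 10.47 to 10.81 and 10.67 to 10.97, which overlap. That change of 0.16 (SE 0.063) passed (limma adjusted p = 0.0330), but not with arrays centred on their medians (0.15) or on the median of the genes tested (0.016), and 6 of the 12 fits that left out a mouse also lost it (sh scramble 1, 2 or 3, sh Grb14 1, 3 or 6). Il13ra2, the decoy receptor of IL-13, was dim in all livers (4.26 to 4.85) and changed by −0.27.

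On the ligand side Il15, which myeloid cells and hepatocytes present to NK and memory T cells, rose 2.08-fold, from 6.35, 6.55 and 6.75 to 7.28, 7.59 and 7.85 (log2 1.06, SE 0.096; limma adjusted p = 4.51e-08). Il15ra, the chain that presents it, fell from 8.85, 9.11 and 9.21 to 8.59, 8.68 and 8.78 (−0.38, SE 0.067; limma adjusted p = 0.000116). The groups did not overlap for either gene, and their changes differed by 1.44 (SE 0.13; exact permutation p = 0.00216, 0.00325 adjusted over the 12 pairs). Il7 changed by 0.22 (SE 0.11) without passing, with levels of 4.93 to 5.57 and 5.32 to 5.85. That change passed without sh scramble mouse 1 (0.28) and after quantile normalization (0.26). Of the ligand genes Il2, Il4, Il9, Il13 and Il21, with mean levels between 4.44 and 7.24, Il9 fell (−0.17, SE 0.070) and the others did not pass.

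The genes of the IL-12 receptor rose beside these. Il12rb1, shared by the IL-12 and IL-23 receptors, rose from 7.47, 7.61 and 7.74 to 8.29, 8.35 and 8.46 (0.76, SE 0.057), and Il12rb2, the chain particular to IL-12, from 6.04, 6.30 and 6.46 to 6.90, 7.28 and 7.37 (0.96, SE 0.088). The difference of −0.20 between their changes (SE 0.085) did not reach the threshold (exact permutation p = 0.0519, the same after adjustment over the 12 pairs). Il27ra, the receptor chain of IL-27, rose by 0.33 (SE 0.065). Il23r fell by 0.16 from levels under the arrays' lower quartiles. The ligand subunit genes Il12b, Il23a and Il27 did not pass, with changes of −0.11, −0.11 and −0.16. Il12a changed by −0.27 (SE 0.11), a fall that passed with all mice but was lost in 6 of the 12 fits that left out a mouse (sh scramble 2, 4 or 6, sh Grb14 1, 3 or 6). With arrays centred on the median of the genes tested Il12b was at −0.25 and passed.

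In the same livers 8 of 11 measured T cell genes rose and 2 fell, with list means of 6.83 to 6.95 in sh scramble and 7.93 to 8.21 in sh Grb14 livers. Cd3g and Cd8b1 rose by 2.95 (SE 0.076) and 2.05 (SE 0.072), whereas Cd4 fell by 0.66 (SE 0.053), and Foxp3 did not pass. Of 12 NK and cytotoxic cell genes 9 rose and 0 fell, with list means of 6.17 to 6.24 and 7.41 to 7.59. The genes at the top were Gzmb (3.46, SE 0.087) and Nkg7 (3.23, SE 0.088). Of the NK receptor genes in the list, Klrk1 (1.92, SE 0.095) and Klrd1 (1.62, SE 0.11) rose, while Ncr1, Klrb1c and Klre1 did not pass. The median change was 1.19 in the T cell list and 1.27 in the NK and cytotoxic list, and the part of these cells in the receptor changes was not tested. B and plasma cell genes and mast cell and basophil genes had median changes of 0.10 and −0.12. In the dendritic cell list 5 of 10 genes rose and 5 did not pass (median change 0.20). The largest rises there were those of Clec9a (2.23, SE 0.10) and Xcr1 (1.85, SE 0.095).

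**Figure D4:**
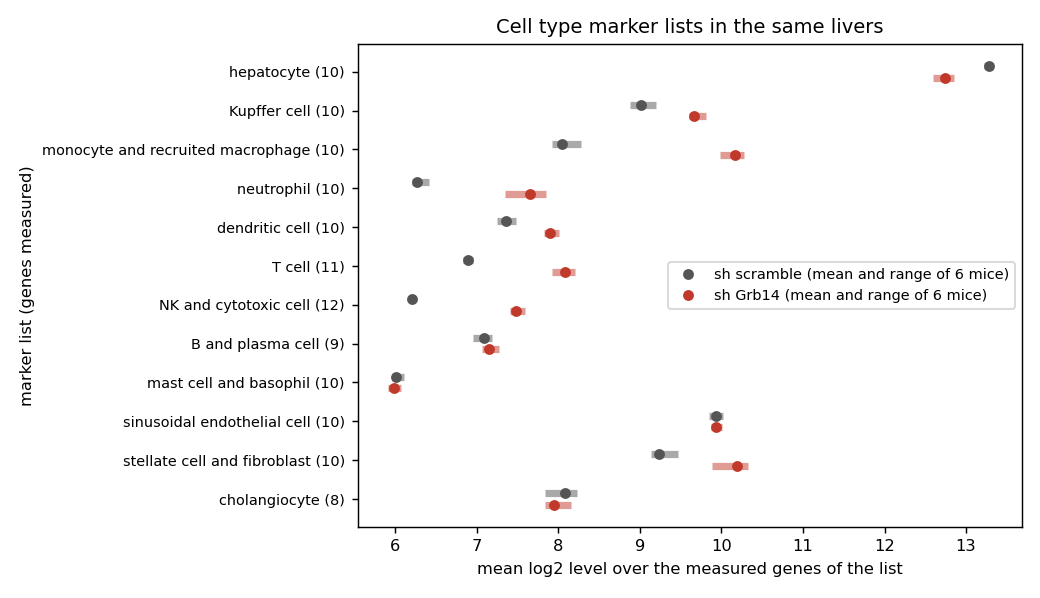
Mean log2 level over the measured genes of each marker list (x axis) in sh scramble (grey) and sh Grb14 (red) livers, with points for the group mean and bars for the range over 6 mice. The Kupffer cell, macrophage, neutrophil, dendritic cell, T cell, NK and stellate cell lists lie higher and the hepatocyte list lower in sh Grb14 livers without overlap, and the B cell, mast cell, endothelial and cholangiocyte lists overlap.

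The IL-6 receptor genes fell and Il6 itself stayed at the bottom of the scale. Il6 had levels of 4.07, 4.19 and 4.31 in sh scramble livers and 3.97, 4.11 and 4.17 in sh Grb14 livers, all under the arrays' lower quartiles, and its change of −0.091 (SE 0.050) did not pass (limma adjusted p = 0.121). It was −0.24 and passed with arrays centred on the median of the genes tested. Il6ra, the chain that binds IL-6 and is abundant on hepatocytes, fell from 10.04, 10.19 and 10.63 to 9.46, 9.62 and 9.69. The fall of 1.56-fold (log2 −0.64, SE 0.082; limma adjusted p = 3.18e-06) left 64.0% of the sh scramble level, and the groups did not overlap. Il6st, the signalling chain gp130, fell by 0.24 (SE 0.046), from 11.57, 11.60 and 11.68 to 11.17, 11.40 and 11.46. The fall of Il6ra exceeded that of Il6st, with a difference of −0.40 (SE 0.11; exact permutation p = 0.00433, 0.00519 adjusted over the 12 pairs). Hepatocyte markers had a median change of −0.26 in the same livers (−2.04 to 0.036), and their part here was not tested.

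Other chains and cytokines that signal with these receptors but carry no Il symbol changed in both directions. Of 9 measured chains 6 rose and 2 fell (median change 1.35), against 25.8% and 39.5% of all genes. Among genes above the median level, where 8 of the 9 lie, the shares were 37.9% and 40.2%. The leukemia inhibitory factor receptor Lifr, a partner of gp130 abundant on hepatocytes, fell by 1.95 (SE 0.055), and the oncostatin M receptor Osmr, another partner, rose by 1.64 (SE 0.073). Csf2rb, the chain that the IL-3, IL-5 and GM-CSF receptors share, rose by 2.09 (SE 0.062), and Csf2rb2, a mouse chain particular to IL-3, by 2.48 (SE 0.10). They are closely similar copies whose probe sets may share signal. Il3ra, the IL-3 binding chain that pairs with them, rose 1.69-fold, from 8.31, 8.35 and 8.57 to 8.99, 9.15 and 9.27 (log2 0.76, SE 0.065). Il3 and Il5 fell by 0.20 and 0.17, each from levels under the arrays' lower quartiles. Among 9 cytokine genes without an Il symbol 4 rose and 2 fell, led by Lif (1.04, SE 0.090), Clcf1 (0.76, SE 0.067), the IL-27 and IL-35 subunit gene Ebi3 (0.64, SE 0.065) and Csf1 (0.60, SE 0.074).

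In the IL-10 family 3 of 5 receptor genes rose and 0 of 4 ligand genes did, against 25.8% of all genes. The share was 37.9% above the median level, where 4 of the 5 receptor genes lie, and 13.7% below it, where the 4 ligand genes lie. The other receptor genes, Il20ra (−0.15, SE 0.077) and Il20rb (−0.15, SE 0.068), which encode chains for IL-19, IL-20 and IL-24, did not pass. Il10ra, the chain that binds IL-10 on leukocytes, went from 7.49, 7.59 and 7.75 to 9.50, 9.64 and 9.77, a 4.09-fold rise (log2 2.03, SE 0.062; limma adjusted p = 6.95e-14). Il10rb, the widely expressed chain that IL-10 and IL-22 share, rose 2.95-fold, from 8.85, 9.21 and 9.31 to 10.59, 10.72 and 10.86 (log2 1.56, SE 0.072; limma adjusted p = 8.38e-12). The Il10ra change was 0.47 larger (SE 0.087; exact permutation p = 0.00433, 0.00519 adjusted over the 12 pairs). Il22ra1, the IL-22 chain of hepatocytes and other epithelial cells, rose 1.65-fold, from 9.18, 9.45 and 9.80 to 10.04, 10.16 and 10.39 (log2 0.73, SE 0.092). Its second probe set gave 0.56. Hepatocyte marker genes had changes from −2.04 to 0.036 in the same livers (median −0.26), and their part here was not tested.

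Il10, an anti-inflammatory cytokine, had levels of 5.37, 5.60 and 5.78 in sh scramble livers and 5.63, 5.72 and 5.79 in sh Grb14 livers. These overlap and lie at the lower quartiles of the arrays. Its change of 0.13 (SE 0.071) did not pass (limma adjusted p = 0.104). It was 0.17 and passed after quantile normalization or without sh scramble mouse 2, and −0.012 with arrays centred on the median of the genes tested. The change of Il10ra exceeded that of Il10 by 1.90 (SE 0.087; exact permutation p = 0.00216, 0.00325 adjusted over the 12 pairs), though at the level of Il10 changes can be understated. Of the other ligand genes, Il20 fell by 0.14 (SE 0.054), and Il19 and Il24 did not pass. Il22ra2, a soluble decoy of IL-22, did not pass (−0.13, SE 0.072).

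**Figure D5:**
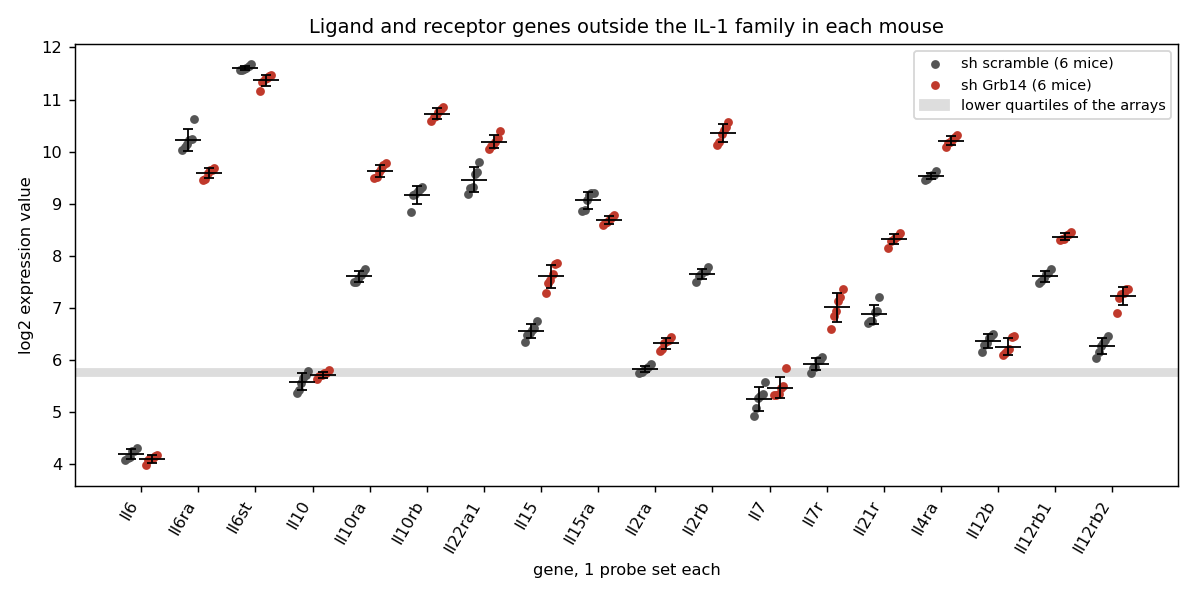
Log2 expression in each of 6 sh scramble (grey) and 6 sh Grb14 (red) livers for genes outside the IL-1 family, with the mean and SD as black marks and the arrays' lower quartiles as a grey band. Red points lie above grey ones without overlap for Il10ra, Il10rb, Il22ra1, Il15, Il2ra, Il2rb, Il7r, Il21r, Il4ra, Il12rb1 and Il12rb2, below them for Il6ra, Il6st and Il15ra, and overlap with them for Il6, Il10, Il7 and Il12b.

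The IL-17 family has 5 receptor genes here, of which 1 rose and 1 fell, against 25.8% and 39.5% of all genes. Of its 6 ligand genes 5 fell, against 38.7% of all genes below the median level, where the 6 lie. Il17ra, the chain shared by the receptors of the family, rose 1.52-fold, from 8.05, 8.19 and 8.38 to 8.73, 8.81 and 8.89 (log2 0.61, SE 0.056; limma adjusted p = 6.55e-08). Il17rc, its partner for IL-17A and IL-17F, fell from 9.78, 9.85 and 9.92 to 9.50, 9.58 and 9.67 (−0.28, SE 0.042; limma adjusted p = 2.54e-05). Neither gene's groups overlapped, and the changes differed by 0.88 (SE 0.068; exact permutation p = 0.00216, 0.00325 adjusted over the 12 pairs). Il17rb, the IL-25 receptor chain, lay at 8.28 to 8.60 and 8.27 to 8.64 (change −0.0064, SE 0.072), and its sign turned in 6 of the 12 fits that left out a mouse. Il17rd (−0.063, SE 0.069) and Il17re (−0.15, SE 0.073) did not pass either. The ligand falls ran from Il25 (−0.36, SE 0.063) and Il17c (−0.33, SE 0.097) to Il17a (−0.18, SE 0.067), and Il17d did not pass. Of 5 measured genes that act downstream of the receptor or regulate it, Nfkbid (0.50, SE 0.073) and Zc3h12a (0.34, SE 0.064), which encodes an RNase that degrades cytokine transcripts, rose, and 3 did not pass. With arrays centred on the median of the genes tested, 2 of the 5 fell.

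All 15 ligand genes that fell had a mean level below the median gene (7.64), and their changes lay between −0.36 and −0.14. They were Il25, Il31, Il17c, Il17f, Il12a, Il1f10, Il17b, Il11, Il3, Il34, Il1f5, Il17a, Il9, Il5 and Il20, and the groups did not overlap for Il25 and Il31 alone. Of the 32 ligand genes below the median gene 15 fell (46.9%), with a median change of −0.13, against 38.7% of all genes below it, whose median change was also −0.13. The number of ligand genes that fell was 8 without sh scramble mouse 6 or sh Grb14 mouse 3, 9 without sh Grb14 mouse 6, and 29 with arrays centred on the median of the genes tested. Il34, a ligand of the CSF1 receptor, had levels of 7.26 to 7.58 and 7.08 to 7.29 and changed by −0.20 (SE 0.063). Il16, a lymphocyte cytokine that binds CD4, went the other way, from 6.67, 6.79 and 6.87 to 7.07, 7.16 and 7.31 (0.39, SE 0.058; limma adjusted p = 1.58e-05).

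Counts were also read by level, against genes on the same side of the median gene (7.64). Level is the mean over all 12 arrays, so a rise itself lifts a gene, and the split is not independent of the change. Il33, Il1b, Il1rn, Il10ra and Il12rb1 had sh scramble means of 7.02 to 7.60 and count above the median gene only through their sh Grb14 values. Of the 52 members below it 30 passed (57.7%, against 52.4% of all genes there), 8 rose at least 1.5-fold (15.4%, against 6.33%), 0 fell that far (against 1.69%), and 13 of the 52 had groups without overlap (against 20.3%). Of the 24 above it 20 passed (83.3%, against 78.1%), 13 rose at least 1.5-fold (54.2%, against 16.7%), 2 fell that far (8.33%, against 12.8%), and 18 had groups without overlap (75.0%, against 62.0%). Of the 17 receptor genes above the median gene 10 rose (58.8%, against 37.9% of all genes above it) and 5 fell (29.4%, against 40.2%). Of the 18 below it 8 rose (44.4%, against 13.7%) and 4 fell (22.2%, against 38.7%).

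The 21 members that rose at least 1.5-fold did not rank the mice alike. In the sh Grb14 group mouse 2 was the lowest of 6 for 10 of the 21 genes and the highest for 0. Their mean level there was 8.63, against 8.69 to 8.83 in the other sh Grb14 livers. In sh scramble livers it was 7.34 to 7.41, and this gap between the groups follows from choosing members that rose. The same mouse was the highest of its group for Il1rap. For Il1b it was the second highest, at 8.85. Leaving out any single mouse gave 25 or 26 members that rose.

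Signal relays and hepatocyte targets of these cytokines were measured from lists too. In the JAK-STAT list rises were found for 12 of 16 genes and falls for 3 (median change 0.40), against 25.8% and 39.5% of all genes. Of genes above the median level, where 15 of the 16 lie, 37.9% rose and 40.2% fell. Stat4, which relays IL-12 signals in lymphocytes, rose by 2.34 (SE 0.087), Jak2 by 0.94 (SE 0.056) and Socs1, a feedback inhibitor, by 0.99 (SE 0.089). Socs2, a growth hormone responsive inhibitor, fell by 1.51 (SE 0.32), with overlapping groups. Socs3, the inhibitor that IL-6 signals induce through STAT3, is named after its value was seen and rose by 0.48 (SE 0.088), also with overlap.

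Hepatocyte genes that IL-6 and IL-1 induce moved in both directions. Rises were found for 8 of 19 genes (42.1%) and falls for 9 (47.4%), and the median change was 0.093. The shares were 25.8% and 39.5% of all genes, but 37.9% and 40.2% of genes above the median level, where 18 of the 19 lie. With arrays centred on the median of the genes tested 5 rose and 9 fell. Lcn2, the siderophore-binding lipocalin 2, rose by 3.54 (SE 0.13) and Saa3 by 1.70 (SE 0.17), and neither overlapped, in livers where 10 of 10 macrophage and 8 of 10 neutrophil genes rose. Their part in these 2 rises was not tested. Saa1 and Saa2 changed by −1.56 (SE 0.42) and −1.53 (SE 0.39), with overlapping groups, and as near-identical copies may share signal.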

How the data were processed

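The authors deposited log2 expression values per probe set. RMA (background correction, normalization and summary of probes) and Partek are named in the submitters' processing notes, without version or role. Per the labels' protocols, 100 ng of total RNA was biotin-labelled for Affymetrix whole-transcript arrays. No detection call, scan date or batch was given in the sources used here, so a batch that followed the groups cannot be told apart from them. The number of arrays (6 a group) limits the precision.

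Of 35556 probe sets, 21789 had 1 gene symbol in the platform annotation and were used. For genes with several, the probe set brightest over 12 arrays was taken. A linear model over all 12 arrays was fitted to these 19938 genes (R 4.3.3; limma 3.58.1, with lmFit and an eBayes intensity trend), without filter or covariate. It was tested on simulated data with independent noise in which few genes changed, so that test does not cover a change as broad as the 65.3% of genes here. Differences between 2 genes' changes used two-sided exact permutation tests over mice.

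Il1f9 and 75 other symbols matched the rule. Probe sets with several symbols that include an interleukin (3 sets) were not used here. Members and lists were chosen with earlier results of these data known. Changes, mostly with levels, are given for members past the test and changed at least 1.5-fold and for a list of 32 genes. Of these 32, Il1r1, Il1rl1 and Il2rg were not analysed. Il17rc, Il25, Il31, Il27ra, Il17c, Il17f, Il13ra2, Il12a, Il1f5 and Il1bos, and a few members given by their change alone, were added after their values were seen. In pathway lists up to 4 genes past the test with the largest changes are named, and Socs3 and the IL-1 relay genes were added after their values were seen. Alternatives were other scalings, no trend, 2 filters on dim genes, the mean of a gene's probe sets and leaving out each mouse.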

Additional observations from a re-analysis of the deposited data

Results flagged for a closer look

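Of 92 sets of 6 mice (46 named genes in 2 groups), 6 had a mouse whose gap to its nearest neighbour was large against the range of the group, where chance gives about 1 in 20. In sh Grb14 livers mouse 2 was the highest for Il1rap (9.31, next 8.86) and the lowest for Il12rb2 (6.90, next 7.19), and mouse 1 was the highest for Il7 (5.85, next 5.50). In sh scramble livers mouse 2 was the lowest for Il10rb (8.85, next 9.16) and the highest for Il3ra (8.57, next 8.37), and mouse 6 was the highest for Il6ra (10.63, next 10.24). For Il1rap, Il12rb2, Il10rb, Il3ra and Il6ra the groups did not overlap with these mice included.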

How the results depend on the processing

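Of 842 comparisons of 46 named genes with their alternatives, 805 kept direction and side of the threshold, 18 lost it, 11 gained it and 8 turned sign, and 36 genes kept both throughout. Leaving out genes below the median level gave 15 members higher and 6 lower (ligands 3 and 1, receptors 10 and 5), as only 24 members were then tested. Leaving out genes below the lower quartile gave 14 members lower (ligands 9, receptors 5), with 48 tested. Centring arrays on the median of the genes tested, an alternative chosen after seeing the data, moved the median of all genes to −0.25 from −0.10 and gave 47 members lower (ligands 29, receptors 16), 2 genes of the IL-17 signalling list lower and 5 hepatocyte genes induced by IL-6 and IL-1 higher, and Il10 turned to −0.012. Leaving out a mouse gave 25 to 26 members higher and 16 to 28 lower, 6 to 7 ligands higher and 8 to 16 lower, 17 to 18 receptors higher and 8 to 11 lower, and a Grb14 change of −1.95 to −1.86. In these fits Il17rb ranged from −0.047 to 0.026 and Il18 from −0.071 to 0.0045. Beyond the smaller number of genes or mice, the cause was not tested. No paired analysis was possible because the labels give no replicate numbers that the groups share. Signal near the arrays' lower quartiles limits what can be read for dim ligand genes.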
